A study of Canis lupus familiaris with 24 samples.

Results

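*Sox17* and *Cxcr4* are a pair of marker genes of definitive endoderm (DE), and they were described here at the end of the first stage of a protocol that turns canine adipose-derived mesenchymal stem cells (cAD-MSCs) toward insulin-producing cells. They were chosen by gene symbol and are 2 of the 26 genes in the tables. Both had values in 8 of the 24 samples, all of day 3. These were 4 undifferentiated cAD-MSC samples and 4 samples of DE cells, 1 of each from cell lines 1, 2, 3 and 4. Samples with the same number in their titles were taken to be of the same line. Each line came from the abdominal fat of a different healthy pet dog. Undifferentiated cells were grown in DMEM, which the study's methods supplement with serum. DE cells were grown in suspension as clusters in serum-free DMEM with sodium butyrate, first with the GSK3 inhibitor Chir99021 and then with Activin A. The study's methods also list BSA in both of these media and insulin-transferrin-selenium in that with Activin A. The groups thus also differ by suspension culture, serum withdrawal, sodium butyrate and these supplements. The effect of Chir99021 and Activin A cannot be told apart from theirs.

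DE is the germ layer from which pancreas, liver, gut and lung arise. Activin A acts through the Nodal branch of TGFβ signaling, and Chir99021 activates the Wnt pathway by inhibiting GSK3. Together these pathways drive cells through mesendoderm, the common precursor of mesoderm and endoderm, into DE. *Sox17* encodes an SRY-box transcription factor required for endoderm formation, and it is also expressed in extraembryonic endoderm and in arterial endothelium. *Cxcr4* encodes the G protein-coupled receptor of the chemokine CXCL12, and its surface protein is often used to sort DE cells. It is not restricted to endoderm, since blood progenitors, migrating mesoderm and some mesenchymal stem cells express it as well. *Sox17* and *Cxcr4* were each listed under a RefSeq mRNA, the same that the study gives for its primers. Neither mRNA was matched in the reference of dog genes used here. The measurements were made by RT-qPCR on total RNA of whole cultures, so fewer positive cells and less RNA per cell cannot be told apart.

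Both genes were higher in DE cells than in undifferentiated cells of day 3. *Sox17* reached 3.45 ± 1.67 (SD, n = 4) times the mean of the controls and *Cxcr4* reached 15.6 ± 7.82 times. For both, the lowest DE sample lay above the highest control (exact two-sided Mann–Whitney U test, p = 0.0286, the smallest value that 4 against 4 samples can give). Of the 7 genes measured on day 3, 57.1% were separated in this direction, so a separation by itself did not set these markers apart from the other genes. Adjusted over the 7 genes by the Benjamini-Hochberg method, the exact p-value of each was 0.05, so that 0 of the 7 genes fell under the threshold of 0.05. When limma was fitted to all 7 genes with a term for the cell line, which called 85.7% of them higher, the adjusted p-value of each was 1.67e-05.

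The threshold cycle (Ct) of *Sox17*, the PCR cycle at which its fluorescence crosses a set level, was 33.47, 33.99, 32.46 and 32.99 in the undifferentiated cells of lines 1, 2, 3 and 4. In DE cells of the same lines it was 31.22, 31.19, 30.00 and 30.65. A lower Ct stands for more template, so *Sox17* was a late but measurable transcript in undifferentiated cells and came 2.25 to 2.80 cycles earlier in DE cells. The latest DE sample was still 1.24 cycles earlier than the earliest control.

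Divided by the reference gene *Gapdh*, the deposited ratio of *Sox17* was 0.353, 0.408, 0.933 and 0.649 per 1000 *Gapdh* in the undifferentiated cells of lines 1 to 4. It was 1.14, 1.29, 3.20 and 2.45 per 1000 *Gapdh* in their DE cells. Relative to the mean of the controls, the controls ranged from 0.602 to 1.59 and the DE cells from 1.95 to 5.46. The gap between the groups was narrow, since the DE cells of line 1 had 1.22 times the level of the undifferentiated cells of line 3. The spread between lines, 2.64-fold in the controls and 2.80-fold in DE cells, was almost as large as the change itself.

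Within the lines, the change of *Sox17* was much more even. DE cells had 3.23, 3.17, 3.42 and 3.77 times the *Sox17* expression of the undifferentiated cells of lines 1 to 4. On the log2 scale this was a mean change of 1.76 with an SD of 0.11 between lines, the second smallest SD of the 7 genes after *Eomes*. The limma fit with the line term gave the same mean change with an SE of 0.08. The exact sign-flip test over 4 pairs gave its smallest possible p-value, 0.13.

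The Ct of *Cxcr4* was 30.19, 30.47, 32.63 and 32.11 in the undifferentiated cells of lines 1 to 4, and 25.69, 25.64, 27.31 and 27.31 in their DE cells. The shift was 4.50 to 5.32 cycles within the lines, and a gap of 2.88 cycles lay between the groups. None of the Ct values of *Cxcr4* or *Sox17* came near 40 cycles, the highest value in the tables, so neither change was set by a limit of detection.

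**Figure D1:**
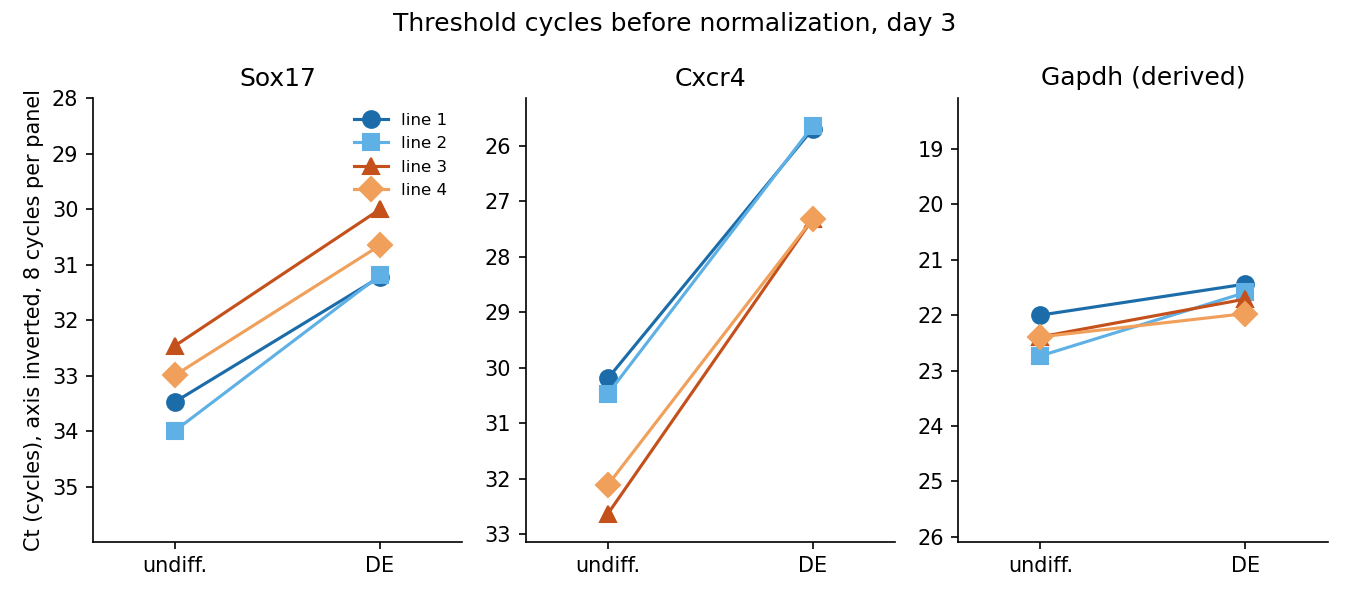
Ct in cycles of *Sox17*, *Cxcr4* and the reference gene *Gapdh* on day 3, in undifferentiated (undiff.) and DE cells of lines 1 to 4, with the vertical axes inverted and 8 cycles high in each panel. Each line joins the samples of a cell line. *Cxcr4* moved by 4.50 to 5.32 cycles, *Sox17* by 2.25 to 2.80 cycles and *Gapdh*, derived from Ct and ratio, by 0.419 to 1.14 cycles, all toward an earlier signal in DE cells.

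As a ratio to *Gapdh*, *Cxcr4* stood at 3.42, 4.70, 0.830 and 1.19 per 1000 *Gapdh* in the undifferentiated cells of lines 1 to 4. In DE cells it stood at 52.6, 60.3, 20.6 and 24.7 per 1000 *Gapdh*. The controls ranged from 0.328 to 1.85 relative to their mean and the DE cells from 8.15 to 23.8. The groups were well apart, with 4.40 times more *Cxcr4* in the lowest DE sample than in the highest control.

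DE cells had 15.4, 12.8, 24.9 and 20.8 times the *Cxcr4* expression of the undifferentiated cells of lines 1 to 4, a mean log2 change of 4.16 with an SD of 0.43. The fold was thus larger in lines 3 and 4, where the undifferentiated cells had the least *Cxcr4*. The lines were less far apart after induction, 2.92-fold in DE cells against 5.66-fold in the controls. The difference in fold between these lines was not tested, because each side holds 2 lines.

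**Figure D2:**
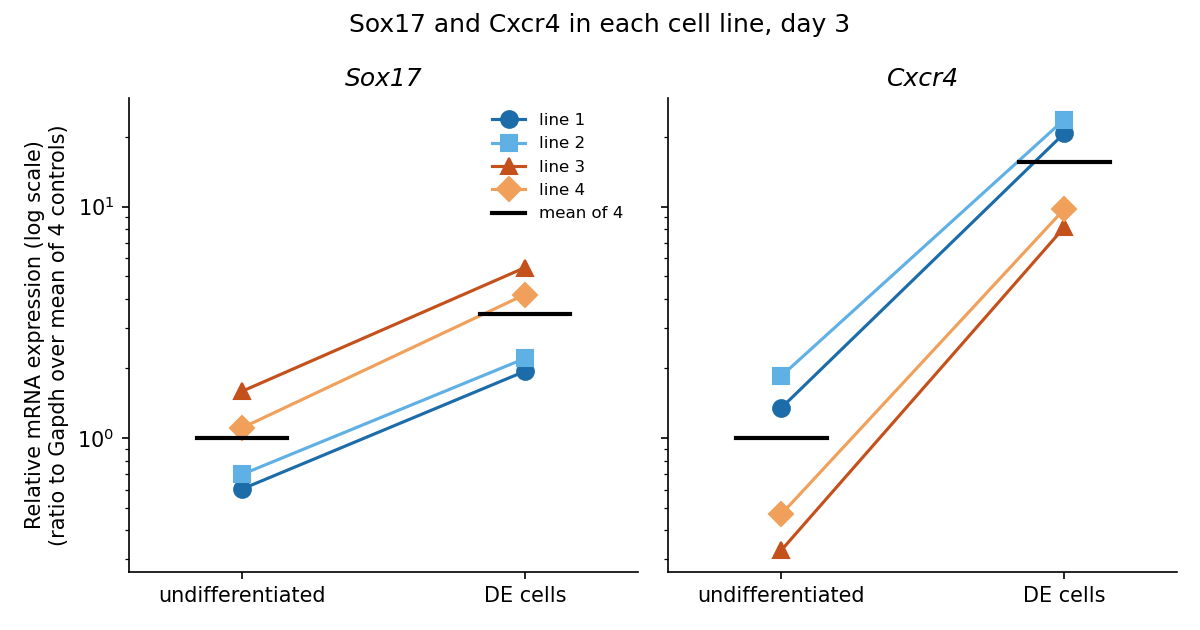
Relative mRNA expression (ratio to *Gapdh* over the mean of the 4 controls, log scale) of *Sox17* (left) and *Cxcr4* (right) on day 3. Points are samples, coloured lines join undifferentiated and DE cells of a cell line, and black bars are arithmetic means of 4. Lines 3 and 4 lie highest for *Sox17* and lowest for *Cxcr4* in both groups, and the steps of *Sox17* are nearly parallel.

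The lines kept their order through the induction for both genes. For *Sox17*, the order from the lowest to the highest was line 1, line 2, line 4 and line 3, in undifferentiated cells as in DE cells. For *Cxcr4* it was line 3, line 4, line 1 and line 2 in both groups. The neighbouring values within a group are single samples, so their order could not be tested.

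The lines with more *Sox17* were therefore those with less *Cxcr4*. Lines 3 and 4 had 2.05 times the *Sox17* level of lines 1 and 2 in undifferentiated cells and 2.30 times in DE cells (ratio of geometric means). Lines 1 and 2 had 4.04 times the *Cxcr4* level of lines 3 and 4 in undifferentiated cells and 2.49 times in DE cells. Within a group, lines 3 and 4 did not overlap with lines 1 and 2 for either gene. No test is given for this contrast, which was seen in the data, and with 2 against 2 samples an exact p-value cannot go below 0.333.

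**Figure D3:**
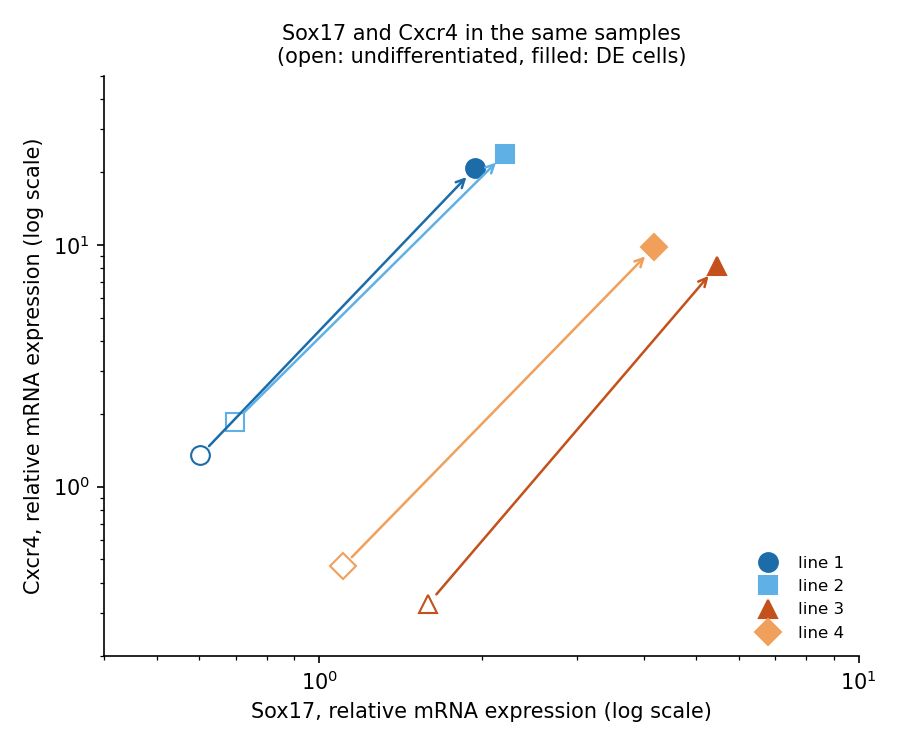
*Cxcr4* against *Sox17* in the same 8 samples of day 3, both as relative mRNA expression on log scales. Open symbols are undifferentiated cells, filled symbols are DE cells, and an arrow joins the samples of each line. All 4 arrows point up and to the right, and lines 1 and 2 stay above and to the left of lines 3 and 4.

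*Cxcr4* rose more than *Sox17* in each line. The ratio of *Cxcr4* to *Sox17* needs no reference gene, since it follows from the Ct of both genes in the same sample. Its level depends on the primers of both assays, so it was compared between samples only. It was 9.71, 11.5, 0.889 and 1.84 in the undifferentiated cells of lines 1 to 4, and 46.2, 46.9, 6.45 and 10.1 in their DE cells. The DE cells of lines 3 and 4 had ratios near those of the undifferentiated cells of lines 1 and 2, so the groups overlapped (p = 0.2, exact Mann–Whitney U test). Within the lines, the ratio increased by 4.76, 4.08, 7.26 and 5.50 times, higher in 4 of 4 lines (exact sign-flip test, p = 0.13, the smallest it can give). The limma fit with the line term gave a log2 change of 2.40 ± 0.16 (SE), with a 95% confidence interval from 2.00 to 2.80 and an adjusted p-value of 3.27e-05. The call thus rests on comparing each line with itself. The fit also held *Sox17* and *Cxcr4*, from which the ratio is formed, so the values fitted were not independent.

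Next, *Sox17* and *Cxcr4* were set beside the other 5 genes of day 3, the mesendoderm genes *Mixl1*, *Eomes* and *Gsc* and the DE genes *Gata4* and *Gata6*, all of them transcription factors. As measured, the change of *Cxcr4* was the largest of the 7 in each line. The Ct of *Gata4* was at the limit of 40 cycles in the undifferentiated cells of lines 3 and 4, so its change there is a lower bound and the first rank of *Cxcr4* over *Gata4* is established only in lines 1 and 2. *Cxcr4* changed more than *Mixl1*, *Eomes*, *Gsc* and *Gata6* in 4 of 4 lines, and more than the measured change of *Gata4*. The ratio of *Cxcr4* to the gene separated the groups for 3 of the 6 (*Eomes*, *Gsc* and *Mixl1*, exact Mann–Whitney U test, p = 0.0286 each and 0.0571 adjusted over the 6). The nearest measured change was that of *Gata4*, which *Cxcr4* exceeded by a mean of at most 2.15 on the log2 scale.

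*Sox17* took rank 5, 2, 3 and 3 among the 7 changes in lines 1 to 4. Its change lay within those of the other DE and mesendoderm genes that increased. When *Gapdh* was replaced by the average Ct of the remaining 6 genes, *Sox17* was 1.17 times the controls and overlapped with them (p = 0.686, exact Mann–Whitney U test), whereas *Cxcr4* was 6.87 times the controls and stayed separated (p = 0.0286, same exact test). Of the 6 genes that replaced *Gapdh* for *Sox17*, 5 were themselves higher in the DE cells of every line.

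**Figure D4:**
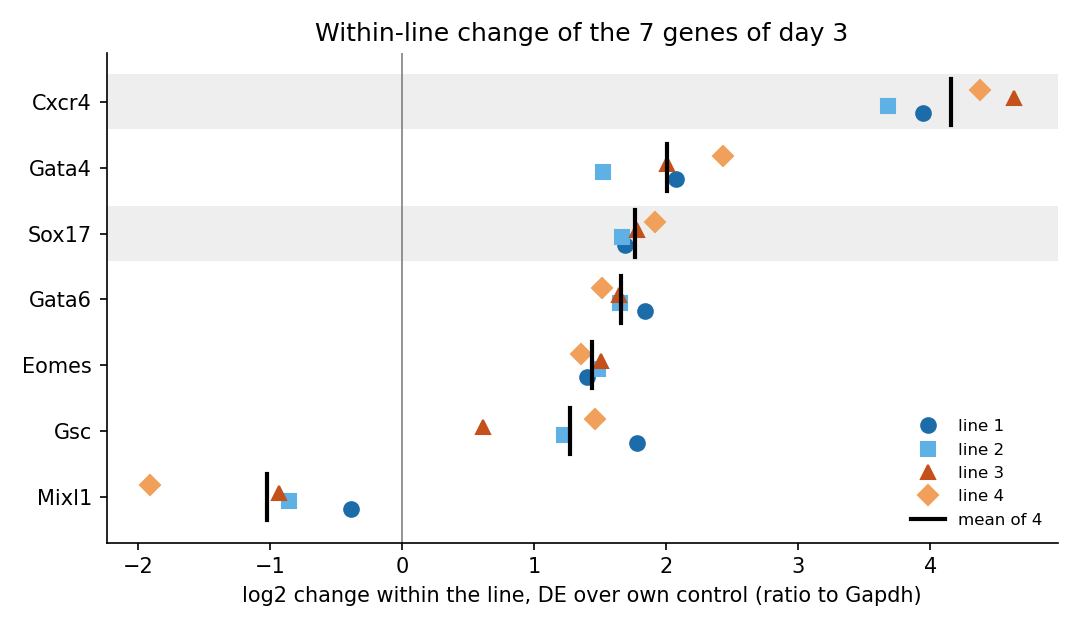
Log2 change of the ratio to *Gapdh*, DE cells over undifferentiated cells of the same line, for the 7 genes of day 3. Symbols are lines 1 to 4, black bars are means of 4, and grey bands mark *Cxcr4* and *Sox17*. *Cxcr4* lies apart on the right with a mean of 4.16, and *Sox17* with a mean of 1.76 lies among the other genes that increased.

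The gene whose pattern was most like that of *Sox17* was *Gata6*, a zinc finger transcription factor of endoderm. *Gata6* was already readily measured in undifferentiated cells, with a Ct of 23.33 to 24.93 against 32.46 to 33.99 for *Sox17*. The Ct of different genes also depends on their primers. Likeness was measured as the root mean square difference of log2 ratios to *Gapdh* over the 8 samples, after the mean of each gene was taken off. It was 0.21 for *Gata6* and 0.85 for *Eomes*, the T-box factor of mesendoderm that came next. All these values share the *Gapdh* Ct of their sample. Expressed relative to the mean of the controls, the ratio of *Sox17* to *Gata6* was 1.12, 1.08, 1.08 and 0.716 in the undifferentiated cells of lines 1 to 4, and 1.01, 1.09, 1.19 and 0.946 in their DE cells. DE cells had 0.900 to 1.32 times the ratio of their own control. *Gata6* was picked for its likeness in these same samples, so the evenness of this ratio is a description and was not tested. The ratio of *Sox17* to the gene overlapped between the groups for 5 of the 6 other genes, all but *Mixl1*. These comparisons did not pair the lines. Within the lines, *Sox17* changed less than *Cxcr4* and more than *Eomes* in 4 of 4. Its order against *Gata4*, *Gata6* and *Gsc* differed between lines.

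No gene was as close to *Cxcr4*. The smallest root mean square differences were 1.49 for *Gata4* and 1.54 for *Eomes*, and *Gsc* followed at 1.54. The value of *Gata4* includes 2 samples at the limit of 40 cycles and is not exact, so the order of these 3 genes is not settled. *Gata4*, like *Cxcr4*, was higher in lines 1 and 2 than in lines 3 and 4 in both groups, by at least 15.0 times in undifferentiated cells, where lines 3 and 4 were at the limit, and by 11.2 times in DE cells. *Sox17* was 1.87 from *Cxcr4* by the same measure.

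The reference gene moved as well. Derived from Ct and ratio, the Ct of *Gapdh* averaged 22.4 ± 0.300 (SD, n = 4) in the controls and 21.7 ± 0.225 after induction, earlier by 0.419 to 1.14 cycles within the lines (exact permutation test between the groups, p = 0.0286). The values derived from *Sox17* and from *Cxcr4* differed by at most 0.00878 cycles in any sample. Without a reference gene, the change was 5.44 times for *Sox17* and 26.7 times for *Cxcr4*, and both remained separated (exact Mann–Whitney U test, p = 0.0286). Division by *Gapdh* thus made both changes smaller. Whether the amount of cDNA or the expression of *Gapdh* differed between the groups was not tested.

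Of the markers of other cell types that were looked for, *Sox7* and *Afp* of extraembryonic endoderm and *Cd44*, *Thy1*, *Itgb1* and *Nt5e* of mesenchymal stem cells, and of the DE marker *Foxa2*, no values were analysed here. The label of the DE cells could therefore be set only against the 4 DE genes and the mesendoderm genes *Mixl1*, *Eomes* and *Gsc*. Of the DE genes, *Sox17*, *Cxcr4* and *Gata6* were separated from the controls, and *Gata4* was higher within all 4 lines but overlapped between the groups. Of the mesendoderm genes, *Eomes* was separated as well. *Gsc* was higher and *Mixl1* lower within all 4 lines, and both overlapped between the groups. Separation was not particular to the DE genes, since 57.1% of the 7 genes were separated.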

How the data were processed

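RT-qPCR of total RNA was made by the authors with TRIzol and Direct-zol extraction, ImProm-II reverse transcription and SYBR Green. The authors deposited Ct values in cycles, not normalized, and the linear ratio of each gene to *Gapdh* (2 to the power of −ΔCt). They also deposited fold changes of their own comparisons, which were not used. Replicate wells and amplification efficiencies are not given in the sources used here. Ct has no depth in the sense of counts, and the number of samples limits the precision.

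Groups and lines came from the sample titles. For relative expression, each ratio was divided by the average over the 4 controls of day 3, which assumes that template doubles in each cycle. Groups were compared with exact Mann–Whitney U tests, after the study's statistics, at a threshold of 0.05. Same-numbered samples were taken to come from the same donor and were treated as paired, which the titles do not state. The deviations of control and DE sample from their group means correlated with r of 0.937 to 0.986 across the 7 genes. These correlations also reflect the split of lines 1 and 2 from lines 3 and 4, which ran through all 7 genes. Mismatched lines were not compared, so the correlations do not establish the pairing of line 1 against line 2 or of line 3 against line 4. The paired fit was limma on log2 ratios with the cell line as a factor, for the ratio of *Cxcr4* to *Sox17* with that ratio added to the 7 genes (8 values). Named genes were *Sox17*, *Cxcr4*, and for each the 2 most alike genes. Comparisons of *Sox17* and *Cxcr4* with the other genes by exact tests were added after the data were seen, as was an alternative with template multiplied 1.9 times in each cycle. The members and lists were chosen with earlier results of these data known. The reference table of dog genes matched the symbol of *Sox17* but not that of *Cxcr4*, and the listed accession of neither, so the names are those of the tables. No sequence was used. Python 3.11.15, numpy 2.4.6, scipy 1.17.1, matplotlib 3.10.9, R 4.3.3 and limma 3.58.1 were used, and each test was checked on simulated data.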

Additional observations from a re-analysis of the deposited data

How the results depend on the processing

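The mean change of *Sox17* and of *Cxcr4* was above 1 under the 17 alternatives run for each, but that of *Sox17* was not distinguishable from 1 when other genes replaced *Gapdh*. The mean change of the ratio of *Cxcr4* to *Sox17* was above 1 under the 15 run for it. By exact tests in smaller designs the p-value could not pass the threshold. With a line left out the changes were 3.32 to 3.50 times for *Sox17* and 14.8 to 18.0 times for *Cxcr4*, and in each case 3 samples stood clear of 3 (exact test, p = 0.1, the smallest possible). They were 3.20 and 13.9 times in lines 1 and 2 alone, 3.57 and 22.5 times in lines 3 and 4 alone (exact test, p = 0.333), and 3.40 and 18.5 times against the own control of each line (exact sign-flip test, p = 0.13). Benjamini-Hochberg adjustment over the 7 genes left the changes at 3.45 and 15.6 with p-values of 0.05 and the number of genes called at 0. When the average Ct of the remaining genes replaced *Gapdh*, *Sox17* was 1.17 times the controls (p = 0.686, exact test) and 2 genes were separated. With the cell line as a block (pairing by donor), limma gave 3.39 times for *Sox17*, 17.9 times for *Cxcr4* and 5.28 times for their ratio, which then passed the threshold, and called 7 genes. Of these 7 genes, 6 were higher in DE cells and 1, *Mixl1*, was lower. All 7 genes were also separated in lines 3 and 4 alone, and each kept its direction of change within every line. Between all samples 4 genes were separated, all of them higher in DE cells. Without the block, limma gave the ratio an adjusted p-value of 0.0522. The ratio was 4.47 to 5.05 times with a line left out. If template were multiplied 1.9 times in each cycle, the changes would be 3.14 times for *Sox17* and 12.8 times for *Cxcr4*. The cause of these differences was not tested.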

Other observations

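The split of the lines seen for *Sox17* and *Cxcr4* ran through the whole panel of day 3. For all 7 genes, lines 3 and 4 did not overlap with lines 1 and 2 in undifferentiated cells or in DE cells, and the direction was the same in both groups. Lines 3 and 4 were higher for 3 genes (*Sox17*, *Gata6* and *Mixl1*) and lower for 4 (*Cxcr4*, *Gata4*, *Eomes* and *Gsc*). Each side holds 2 lines, the split was seen in the data, and no test is given. Whether these pairs of lines were handled together was not tested.

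The DE cells of lines 3 and 4 had the same *Cxcr4* Ct to 2 decimals, 27.31 cycles, and the same *Gsc* Ct, 30.43 cycles. Among 84 comparisons of a Ct between lines of the same group, 3 were identical in this way, the third being *Gata4* at 40 cycles in the undifferentiated cells of lines 3 and 4. The *Sox17* Ct of these DE samples differed, 30.00 against 30.65 cycles.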
